A study of Mus musculus with 38 samples.

Results

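The mRNAs of respiratory complexes II to V were followed through 38 ribosome profiling libraries of 14 groups from mouse cortical neurons. The members are protein-coding genes of the nuclear genome taken by symbol, as Sdha to Sdhd, every Uqcr, Cox4 to Cox8 and Atp5 gene, and Cyc1, so that a subunit with another symbol, such as Ndufa4 of complex IV, is not among them. This gave 48 of 22375 genes, of which 4 belong to complex II, 9 to complex III, 18 to complex IV and 17 to complex V. Of these, 43 passed the filter on low counts and were tested, or 42 in the DHPG libraries, where Cox6b2 fell out. Cox4i2, Cox7a1, Cox7b2, Cox8b and Cox8c did not pass, with 14, 120, 1, 6 and 0 counts over all libraries. The symbol rule also takes in Cox7a2l, a factor that joins complexes III and IV into supercomplexes, and Atp5s, a factor linked to the ATP synthase that is not a strict subunit.

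Oxidative phosphorylation passes electrons along complexes of the inner mitochondrial membrane and uses the proton gradient so made to form ATP. Complex II, succinate dehydrogenase, feeds electrons from the tricarboxylic acid cycle into ubiquinone and is built only from nuclear genes. Complex III carries them from ubiquinone to cytochrome c, complex IV passes them on to oxygen, and complex V, the ATP synthase, lets protons flow back to drive ATP formation. Complexes III to V combine a few subunits made inside mitochondria with many made on cytosolic ribosomes, most of them small. Neurons depend on this pathway to restore ion gradients after firing, and mitochondria are present in dendrites as well as in the cell body.

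Primary cortical neurons were taken from embryos of CD-1 mice, grown in culture and given a doxycycline-inducible biotin ligase by lentivirus. The ligase was either TurboID-PSD95, carried to dendrites by elements of the PSD95 transcript, or Pan-TurboID, made without such elements and so spread over the neuron. Each of the 7 conditions has input libraries of all footprints (the mRNA pieces that ribosomes protect) and pulldown libraries of footprints recovered on streptavidin with biotinylated complexes. All neurons received cycloheximide, which halts elongating ribosomes, 2 min before biotin. Biotin was given for 30 min per the labels, although the methods give a shorter time for DHPG. Resting neurons and neurons depolarized with 55 mM KCl for 1 h carried either ligase, with 3 replicates each of input and pulldown (24 libraries). The 6 DHPG libraries (3 inputs, 3 pulldowns) came from TurboID-PSD95 neurons given 100 µM DHPG for 10 min, which activates group I metabotropic glutamate receptors. The 8 knockdown libraries (2 per group) came from resting and depolarized TurboID-PSD95 neurons exposed to 20 nM siRNA against eIF4G2, a translation factor, for 72 h. The ligase of the DHPG and knockdown libraries is taken from the virus label, while their descriptions name the cytosol for DHPG inputs and for all knockdown libraries. Activated neurons were first silenced with tetrodotoxin and DL-AP5 for 2 h, and after KCl or DHPG they rested for 30 min per the labels. The methods give a shorter rest for DHPG. The methods also place cycloheximide before the biotin step, so that elongation may have been halted during this rest. Neurons were collected at its end, and which time within it the footprints reflect is not known. Per the labels, resting neurons had neither silencing nor rest, so that KCl cannot be told apart from these steps. Non-targeting siRNA controls were not analysed here, and the resting and no-knockdown groups that stand opposite DHPG and siRNA come from the KCl experiment, so that experiment and treatment cannot be told apart in those comparisons. The methods call the replicates of the KCl experiment biologically independent and state that resting and activated samples of 1 replicate were processed together. For the DHPG and knockdown libraries the labels give only a replicate number, so p-values there measure a spread that may be technical.

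The siRNA target was checked first. In CPM, the coding sequence (CDS) counts scaled to each library's normalised total, Eif4g2 stood at 269, 269, 319 and 305 in the 4 knockdown inputs, at 503, 537 and 550 in resting and at 580, 506 and 728 in depolarized TurboID-PSD95 inputs. Over both conditions this gave a log2 fold change of -0.94 (edgeR FDR 4.09e-05, SE 0.134). Dlg4, the gene of PSD95, had 353 to 5100 CPM in TurboID-PSD95 pulldowns and 54 to 188 in inputs, a reading that can include footprints on the ligase construct, which carries PSD95 sequence of the rat. CDS counts per library lay between 2047329 and 14637215. Summed neuron markers were at 5740 to 11700 CPM in every library, and microglial markers at 0 to 14.6 CPM. Summed astrocyte markers were at 292 to 936 CPM in the KCl experiment, 507 to 715 CPM in knockdown inputs and 93 to 93.9 CPM in DHPG inputs. Over 9199 genes, the level relative to the mean of all libraries ran with CDS length in opposite directions in inputs (Spearman -0.644 to -0.245) and in most pulldowns. Depolarized TurboID-PSD95 pulldown replicate 2 stood apart, at -0.521 against 0.347 and 0.151 in replicates 1 and 3. Counts and medians in which its weight showed are also given without it.

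**Figure D1:**
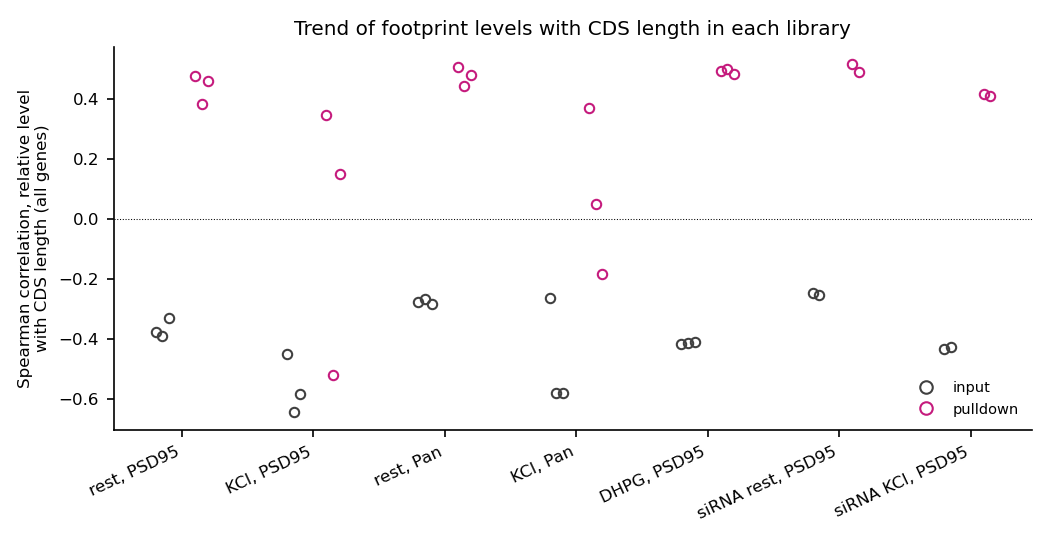
Spearman correlation, over 9199 genes, between CDS length and the log2 CPM of each library minus the mean of all libraries (y axis), for the 7 conditions (x axis), inputs in grey and pulldowns in magenta, 1 circle per library. All inputs lie below 0, and among pulldowns only depolarized Pan-TurboID replicate 3 (-0.181) and depolarized TurboID-PSD95 replicate 2 (-0.521) do.

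Most members are short. The median CDS was 337.5 nt over the 48 members, against 1389 nt over the 13004 genes tested. By complex it was 679.5 nt for complex II (480 to 1995), 336 nt for complex III (171 to 1443), 264 nt for complex IV (150 to 519) and 426 nt for complex V (94 to 1590). The longest belong to catalytic or core subunits. Sdha, the flavoprotein that oxidises succinate (mm10 chromosome 13, CDS from 74323087 to 74350208, minus strand), has 1995 nt, and Atp5b, the catalytic beta subunit of the ATP synthase (chromosome 10, 128083327 to 128090119, plus strand), has 1590 nt. At the other end, the longest annotated transcript of Atp5g2, which encodes the membrane ring subunit c, carries a CDS of only 94 nt, while its most counted transcript has 441 nt.

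Members had high footprint levels per length in resting neurons, a measure that holds both the amount of mRNA and its occupancy by ribosomes. In the 6 resting inputs, the median level per kb of CDS over the 43 tested members was 419 CPM per kb, with medians of 383 for complex II, 315 for complex III, 594 for complex IV and 419 for complex V. The 37 nuclear subunits of complex I, a list outside the members, had a median of 229 CPM per kb and all 13004 genes one of 17.2. Genes of equal CDS length were not set beside these levels, although inputs held more of short CDS relative to the mean of all libraries. Cox8a, a small complex IV subunit (chromosome 19, 7215389 to 7217512, minus strand), had the highest level, 2620 to 3850 CPM per kb over the 6 libraries. Atp5b followed with 1770 to 2060, a range that does not touch that of Cox8a but overlaps that of Cox4i1, the complex IV subunit to which ATP binds as a regulator, at 1320 to 1850. Sdha, at 133 to 152 CPM per kb, stood below the anchor subunits Sdhd (355 to 481) and Sdhc (279 to 423) and the iron-sulfur subunit Sdhb (343 to 367), and its range touches none of theirs. The lowest tested members were Cox6a2 (29.7 to 69.9), Atp5s (17.1 to 39.9) and Cox6b2 (11.5 to 67.9), whose ranges overlap. These orders hold for resting inputs. In DHPG pulldowns, the mean of Sdha (446 CPM per kb) stood above those of Sdhd (344), Sdhc (256) and Sdhb (139). In resting TurboID-PSD95 pulldowns it was again the lowest of the 4, at 241 against 325, 299 and 248.

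**Figure D2:**
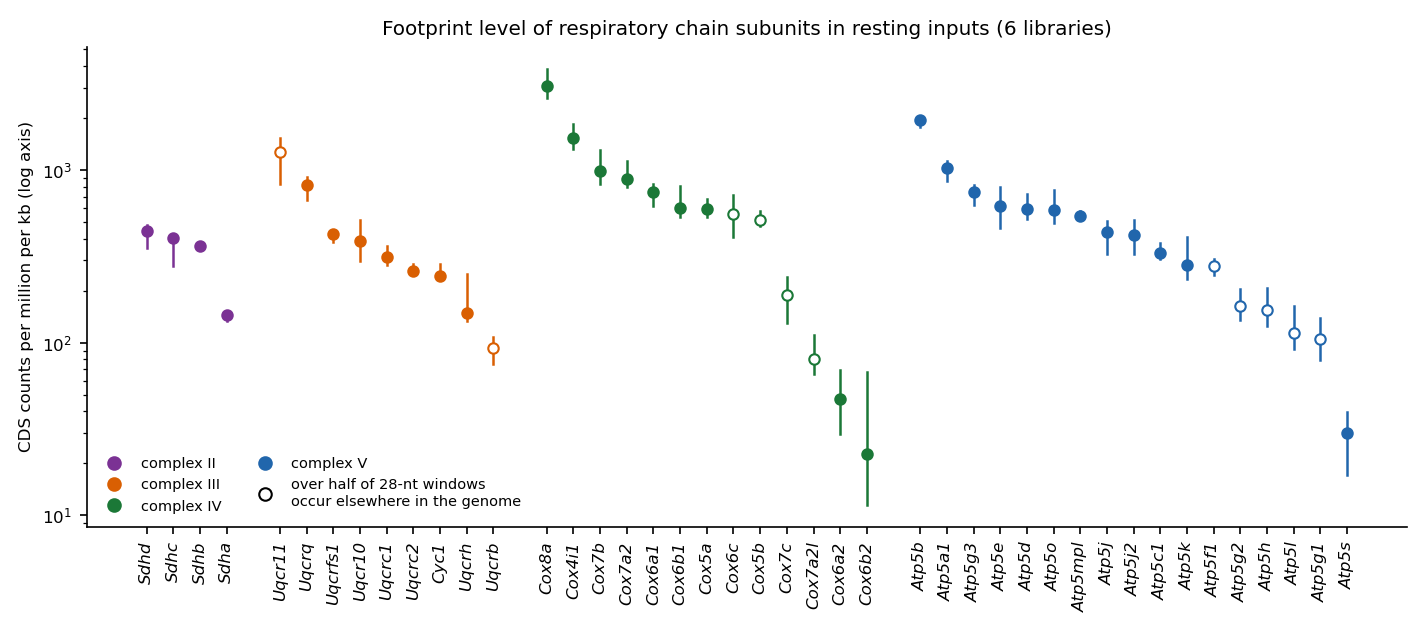
Level per kb of CDS (CPM per kb, log axis) of the 43 tested members in the 6 resting inputs, ordered within each complex; circles are medians and lines run from the lowest to the highest library. Cox8a and Atp5b lead at 3050 and 1950 CPM per kb, and 10 of the 11 open circles (members with most of their 28-nt windows elsewhere in the genome) lie at or below 557.

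The level of a member with copies elsewhere in the genome is uncertain, since it is not stated how reads with several alignments were handled. Processed pseudogenes of respiratory chain genes are common in mammalian genomes. Every 28-nt window of each CDS was searched in the mm10 genome for exact matches, so that copies with sequence differences can be missed. Of 48 members, 20, among them all of complex II, had no window elsewhere, and 11 had most of their windows elsewhere. Of these, Atp5g1, Atp5g2 and Atp5l (subunit g) reached 100%, Uqcrb (a ubiquinone-binding complex III subunit) 91.9%, Atp5h (subunit d) 86.3% and Cox5b 84.6%. The median level was 403 CPM per kb for the 15 tested members without a window elsewhere, 588 for the 17 in between and 164 for the 11 with most windows elsewhere. The values of this last group are the least certain.

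Among tissue isoforms, Cox4i1, Cox6a1, Cox6b1, Cox7a2, Cox7b and Cox8a carried nearly all counts. Per length, Cox4i2, the form tied to low oxygen, made up 0.00853% of Cox4i1 and Cox4i2 together, and the heart and muscle form Cox7a1 0.227% of Cox7a1 and Cox7a2. Cox7b2, at 0.00208%, and Cox8b, at 0.00523% beside Cox8a, were close to 0, and Cox8c was at 0. Pooled over all libraries, the muscle form Cox6a2 made up 5.85% beside Cox6a1 (2.86% to 16.4% in single libraries) and the testis form Cox6b2 3.91% beside Cox6b1. In TurboID-PSD95 inputs the share of Cox6b2 was 1.41% to 9.93% at rest and 0.397% to 3.15% after KCl, 7.46% to 7.91% and 9.5% to 11.8% in the same conditions with knockdown, and 0.442% to 0.604% after DHPG. The DHPG range lies within that of depolarized inputs.

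Pulldowns held a smaller share of respiratory chain footprints than inputs, and more so for complex IV. At rest, the members made up 1.39% of all CDS counts in TurboID-PSD95 inputs (SD 0.0642, n = 3) and 1.06% in pulldowns (SD 0.0473, n = 3). For complex IV the share went from 0.331% to 0.143%, while for complex II it was 0.109% and 0.101%. The comparison that asks what is translated in resting dendrites sets these pulldowns against the mean of both resting inputs. Of 43 members, 29 were lower and 1 was higher at an edgeR FDR of 0.05, with a median log2 fold change of -0.94, against 15% of all genes lower and 16.6% higher and a median of 0.01. By complex, 1 of 4 members was lower in complex II, 6 of 9 in III, 11 of 13 in IV and 11 of 17 in V.

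The member that rose at rest was Sdha. Its CPM was 266, 280 and 303 in TurboID-PSD95 inputs, 279, 294 and 295 in Pan-TurboID inputs and 422, 445 and 578 in TurboID-PSD95 pulldowns, so that pulldowns lay above all inputs (log2 fold change 0.75, SE 0.181, FDR 0.00399). Sdhb, its partner in the same enzyme, went the other way, with 308, 308 and 312 CPM in TurboID-PSD95 inputs and 187, 231 and 214 in pulldowns (log2 fold change -0.54, SE 0.149, FDR 0.00844). In complex IV, Cox6a1 (chromosome 5, 115345843 to 115348950, minus strand) had 209, 282 and 254 CPM in TurboID-PSD95 inputs and 76.6, 134 and 90 in pulldowns (log2 fold change -1.31, SE 0.273, FDR 0.00156). No pulldown of either gene reached the lowest input. Cox5a, a nuclear subunit on the matrix side of complex IV, was lower at -0.94 (SE 0.211), Uqcrq and Uqcrh (the hinge subunit) of complex III at -1.27 (SE 0.282) and -1.09 (SE 0.265), and Atp5j2 (subunit f) and Atp5e (subunit epsilon) of complex V at -1.04 (SE 0.242) and -1.14 (SE 0.273), all with an FDR of 0.00404 or less.

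Several core subunits were not called. Atp5a1 and Atp5b, which form the catalytic head of the ATP synthase, had log2 fold changes of -0.04 and 0.13, and its central stalk subunit Atp5c1 one of -0.09. Cyc1, the cytochrome c1 of complex III, had -0.03, and Uqcrc1, a core protein of complex III, 0.41 (FDR 0.0523). None of these passed, although Uqcrc1 was called higher by DESeq2 (FDR 0.0444) and with a replicate block (FDR 0.0419). The 3 genes for subunit c were at -0.88 (Atp5g1), -1.69 (Atp5g2) and -0.97 (Atp5g3), the Rieske protein Uqcrfs1 at -0.38, Cox4i1 and Cox6c at -0.91 each, Cox7c at -0.87 and Cox8a at -1.53, all of which passed except Atp5g1 (FDR 0.0709, or 0.0213 with a replicate block). Leaving out replicate 3 ended all 30 calls, where 0.121% of all genes passed, and the median was -0.85. In this fit 28 members had an unadjusted p below 0.05. Here and below, shares of all genes called are at an FDR of 0.05. Counts at an unadjusted p have no such share beside them and are not read as results.

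This order followed CDS length. The Spearman correlation between log2 fold change and CDS length was 0.521 over all genes and 0.788 over the 43 members, a description over genes that share libraries. Against the 200 genes nearest in CDS length, 19 members lay above and 24 below the neighbours' median. When the dependence on CDS length was taken out of every library, 2 members passed, against 19.8% of all genes, and the median was -0.02. Sdha stayed higher (log2 fold change 0.53, SE 0.167, FDR 0.0248). The other was Atp5o, which encodes the subunit that joins the head of the ATP synthase to its peripheral stalk (chromosome 16, 91925278 to 91931555, minus strand). It had 374, 376 and 458 CPM in TurboID-PSD95 inputs and 182, 256 and 148 in pulldowns, and its log2 fold change went from -1.03 (SE 0.274) to -0.55 (SE 0.187, FDR 0.0361). The call for Sdhb was lost (FDR 0.151). With a replicate block 4 members passed, against 24.5% of all genes, Atp5f1 (0.38) and Cox8a (-0.38) being added. With a replicate block within each condition, chosen after seeing the data because same-numbered libraries of a condition deviated together, 9 members passed with the trend removed, 4 higher and 5 lower, against 31.7% of all genes.

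**Figure D3:**
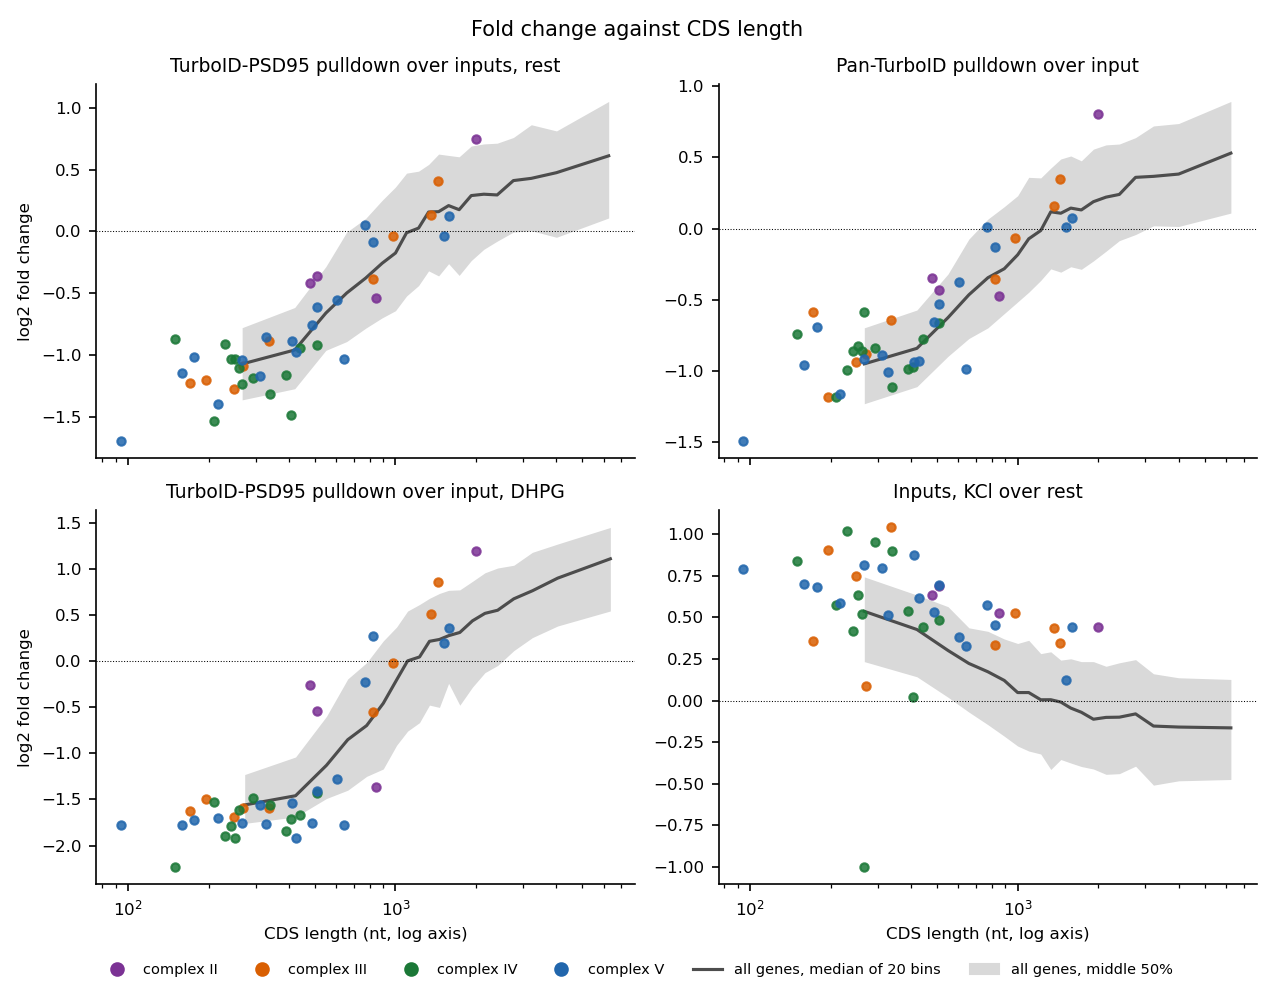
Log2 fold change (y axis) against CDS length (nt, log axis) in 4 comparisons; points are members coloured by complex, the line is the median of all genes in 20 bins of CDS length and the band holds the middle 50% of genes. In pulldown over input most short members lie near the line of all genes and Sdha, the longest, above the band in all 3 panels; in inputs after KCl, 37 of 43 members lie above their neighbours in length.

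Other mitochondrial gene lists were read in the same way. In the resting comparison, 27 of 37 nuclear complex I subunits were lower and 3 higher (median -0.90), and of 33 assembly factors 8 were lower and 3 higher (median -0.63). The tricarboxylic acid cycle had 5 of 18 genes higher and none lower, and the 13 mitochondrially encoded subunits 6 higher and none lower (median 0.99). Of 76 cytosolic ribosomal proteins, which are also short, 59 were lower (median -0.97). Over all genes 15% were lower and 16.6% higher. Once the length trend was removed, 3 complex I subunits were lower and 2 higher (median -0.05), 1 assembly factor was higher and none lower, 2 genes of the tricarboxylic acid cycle were higher and 1 lower, 2 mitochondrially encoded subunits were higher and none lower (median 1.16) and 8 ribosomal proteins were lower (median -0.23), where 19.8% of all genes passed.

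After KCl, members were again lower in TurboID-PSD95 pulldowns than in inputs. Of 43 members, 19 were lower and 1 higher (median -0.71), against 7.57% and 10.9% of all genes. Lower calls numbered 2 of 4 in complex II, 4 of 9 in III, 8 of 13 in IV and 5 of 17 in V. Sdha had 466, 377 and 363 CPM in TurboID-PSD95 inputs and 953, 451 and 630 in pulldowns, a log2 fold change of 0.80 (SE 0.18, FDR 0.00564). Only 1 of its pulldowns, replicate 2, lay below the highest of these inputs. Sdhb was lower at -0.64 (SE 0.149), Uqcrfs1 at -0.53 (SE 0.143), Uqcr10 at -1.11 (SE 0.302), Cox6a1 at -1.14 (SE 0.268), Cox6c at -1.11 (SE 0.298), Atp5l at -1.17 (SE 0.298) and Atp5j2 at -0.86 (SE 0.237), with FDRs up to 0.0153. Without pulldown replicate 2, Sdha was at 1.02 (FDR 1.58e-04) and these 7 lay between -0.69 (Uqcrfs1) and -1.68 (Uqcr10), with FDRs up to 0.00156. With the length trend removed Sdha passed (0.62, FDR 0.0163), against 10.6% of all genes, and the median was 0.05. A replicate block added Atp5o (-0.50, FDR 0.0336), against 16.5% of all genes. Without the block, calls were lost with the trend removed for Sdhb and Sdhc in complex II, for Uqcrfs1, Uqcr10, Uqcrb and Uqcrq in complex III, for all 8 lower members of complex IV, and for Atp5l, Atp5j2, Atp5d, Atp5e and Atp5o in complex V.

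These counts rest on few libraries. Without depolarized TurboID-PSD95 pulldown replicate 2, 34 members passed, 32 of them lower (median -1.16), against 33.4% of all genes, and 3 with the length trend removed, against 21%. With a replicate block within each condition 32 passed, against 33.2% of all genes, and 5 with the trend removed, against 22.8%. Without replicate 1 of the experiment 8 passed (8.72% of all genes), and without replicate 3 none (0.129% of all genes). In the latter fit 15 had an unadjusted p below 0.05, a count without a share of all genes beside it. The change of the dendritic comparison from rest to KCl was called for no member by the quasi-likelihood test or DESeq2, with 0 at an unadjusted p of 0.05 (median 0.16) and 0% of all genes called. The median turned to -0.14 without replicate 2 of the depolarized pulldown.

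With Pan-TurboID most members were lower in pulldowns than in inputs. Over both conditions 30 of 43 members were lower and 2 higher (median -0.77), against 17.2% and 17% of all genes. Sdha went from 279, 294 and 295 CPM to 477, 483 and 493 at rest and from 386, 364 and 344 to 900, 612 and 538 after KCl (log2 fold change 0.80, SE 0.152, FDR 5.95e-04), without overlap. Uqcrc1 was the other higher member, at 0.35 (SE 0.132, FDR 0.0446). Cox6a1 was lower at -1.11 (SE 0.21), Cox5a at -0.77 (SE 0.166), Uqcr10 at -1.18 (SE 0.238), Uqcrh at -0.88 (SE 0.205), Atp5g2 at -1.49 (SE 0.302) and Atp5j2 at -0.92 (SE 0.188). With the length trend removed, 5 members passed, against 21.5% of all genes, with Sdha (0.62), Sdhd (0.33), Uqcr11 (0.51) and Atp5mpl (0.42, from a call at -0.69) higher and Atp5o (-0.53) lower. Sdhb and Sdhc, lower before (-0.47 and -0.43), no longer passed. Without replicate 3, 13 members passed, against 9.68% of all genes.

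The difference of the baits was tested directly, as TurboID-PSD95 pulldown over input beyond that of Pan-TurboID. No member passed, none had an unadjusted p under 0.05, and none passed in DESeq2, against 0.00769% of all genes, which is Dlg4 alone. The median was -0.10, or -0.32 without depolarized TurboID-PSD95 pulldown replicate 2, and 31 of 43 members lay below the median of their 200 neighbours in length. Sdha, for example, was at -0.06 (SE 0.213).

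The DHPG replicates were closer to each other (Pearson r of log2 CPM 0.990 to 0.995) than those of the resting groups (0.947 to 0.970). Of 42 members, 35 were lower and 6 higher in TurboID-PSD95 pulldowns than in inputs (median -1.58), against 39.3% and 40.4% of all genes. The 6 higher members were Sdha, Uqcrc1, Uqcrc2, Atp5a1, Atp5b and Atp5c1, in a comparison whose log2 fold changes ran with CDS length at a Spearman correlation of 0.73 over the members. Sdha had 375, 382 and 388 CPM in inputs and 920, 890 and 859 in pulldowns (log2 fold change 1.19, SE 0.0562, FDR 1.88e-12), and Uqcrc1 had 447, 453 and 445 against 834, 846 and 811 (log2 fold change 0.86, SE 0.0539). In both genes all pulldowns lay above all inputs. Atp5b was at 0.36, Uqcrc2 at 0.51, Atp5a1 at 0.20 and Atp5c1 at 0.28, although the last 2 were at -0.02 and -0.08 with the most counted transcript.

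Among lower members after DHPG, Atp5g3 had the smallest p. Its CPM was 340, 352 and 359 in inputs and 92.7, 99.7 and 91.6 in pulldowns, which do not overlap (log2 fold change -1.92, SE 0.0657, FDR 8.76e-14). Atp5o was lower at -1.78 (SE 0.0738), Cox4i1 at -1.43 (SE 0.055), Cox6c at -1.90 (SE 0.0749), Sdhb at -1.37 (SE 0.0687) and Uqcrq at -1.69 (SE 0.0925). With the length trend removed, 9 members were higher and 18 lower (median -0.17), where 67.4% of all genes passed. In complex IV 9 of 12 members were lower and none higher, in complex V 7 of 17 lower and 3 higher, while complex II had 3 of 4 higher and complex III 3 of 9 higher, with 1 lower in each. Sdhd and Sdhc, the membrane anchors, went from -0.26 and -0.54 to 0.87 (SE 0.0674) and 0.55 (SE 0.0671), and Sdhb kept a negative value of -0.86 (SE 0.067). Atp5f1 also went from a lower call (-0.22) to a higher one (0.40, SE 0.0792). In complex IV the calls for Cox6a2, Cox6b1 and Cox8a were lost, at -0.07, -0.16 and 0.01.

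The knockdown libraries, with 2 per group, were compared in the same way. Over both conditions 35 of 43 members were lower and 4 higher in pulldowns (median -1.34), against 30.6% and 29.1% of all genes. Sdha (1.00, SE 0.0618), Uqcrc1 (0.52), Uqcrc2 (0.27) and Atp5c1 (0.24, or -0.13 with the most counted transcript) were higher. Sdha went from 284 and 303 CPM in resting inputs to 585 and 546 in pulldowns, and from 353 and 362 to 778 and 783 after KCl. Pulldowns lay above inputs in both conditions. Cox4i1 was lower at -1.37 (SE 0.0599), Cox7a2 at -1.79 (SE 0.0893), Atp5o at -1.79 (SE 0.0855), Atp5j (a peripheral stalk subunit) at -1.76 (SE 0.111), Sdhb at -1.12 (SE 0.0804), Uqcrq at -1.60 (SE 0.108) and Uqcr10 at -2.28 (SE 0.166). With the trend removed 8 were higher and 13 lower (47.2% of all genes passed), with Sdha at 0.78, Sdhb at -0.70 and Atp5o at -1.12, and in complex II the call for Sdhc was lost (0.19, FDR 0.0771). Sdhd went from a lower call (-0.46, FDR 7.4e-05) to a higher one (0.51, FDR 3.34e-05), and so did Uqcr11 (-1.25 to 0.35, FDR 0.0119).

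**Figure D4:**
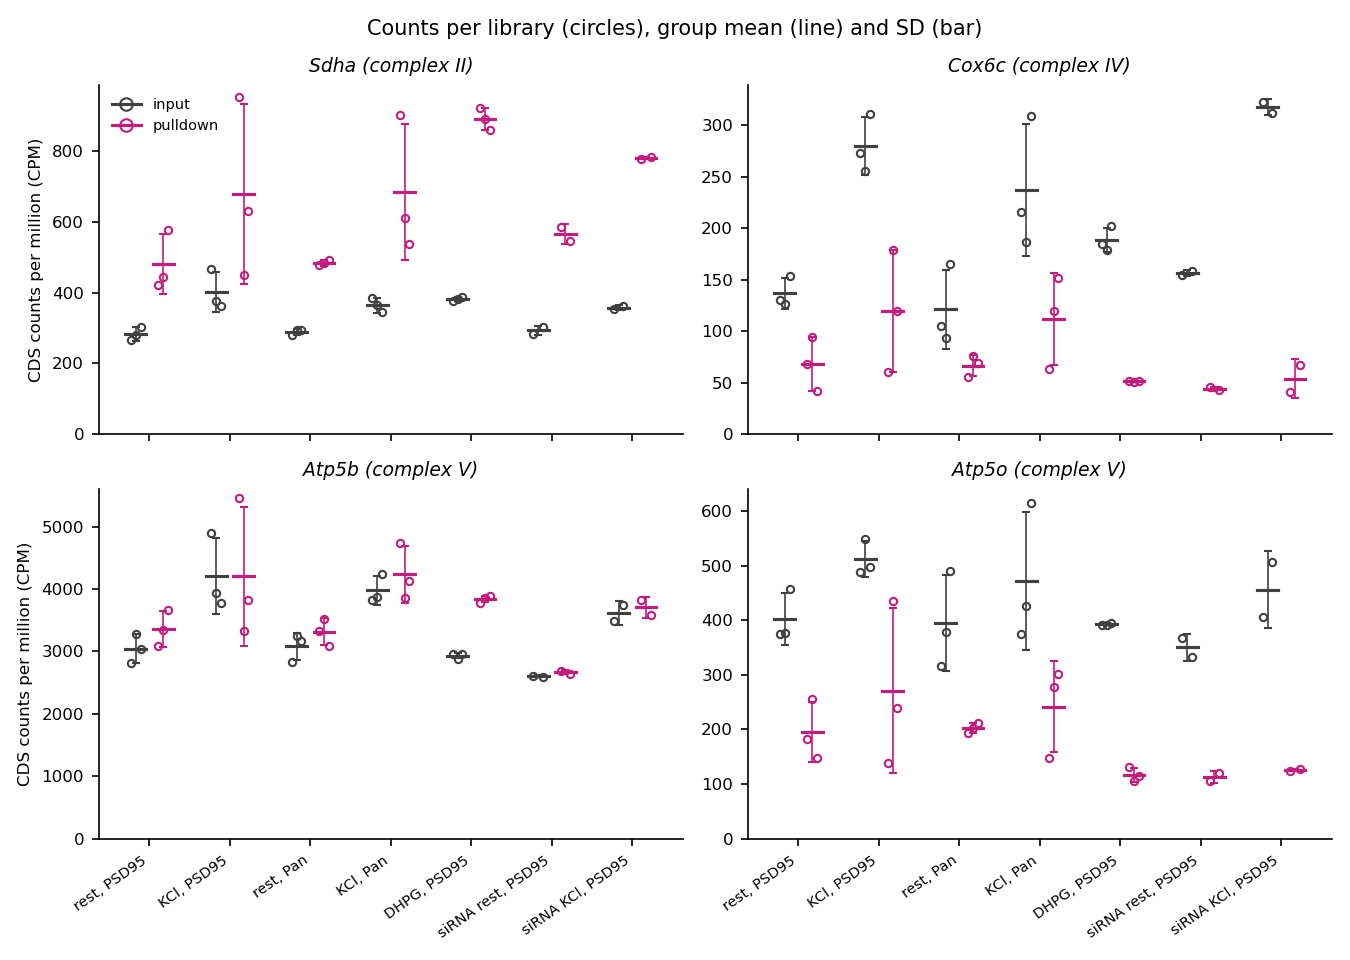
CPM of Sdha, Cox6c, Atp5b and Atp5o in every library (circles), with group means (lines) and SD (bars), inputs in grey and pulldowns in magenta, for 7 conditions. Pulldowns of Cox6c and Atp5o lie below all inputs of the same bait and condition and those of Sdha above them, except 1 depolarized TurboID-PSD95 pulldown of Sdha (451 CPM against 466), while Atp5b ranges from 2590 to 5460 CPM.

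Relative to all CDS footprints, those of the respiratory chain rose in inputs after KCl. The paper reports a fall of ribosomes on coding sequences with depolarization, and absolute levels were not measured here. The share of all CDS counts taken by the members was 1.39% in resting and 1.92% in depolarized TurboID-PSD95 inputs (SD 0.0642 and 0.0515, n = 3 each), and 1.36% and 1.71% with Pan-TurboID (SD 0.053 and 0.305). The depolarized Pan-TurboID inputs stood at 1.4%, 1.7% and 2.01% and the resting ones at 1.32%, 1.42% and 1.34%, so that depolarized replicate 1 lay within the resting range. Its complex IV share of 0.295% was below the 0.31% to 0.352% of resting Pan-TurboID inputs. In CDS length trend it also stood apart from its group, at -0.262 against -0.579 in both others and -0.282 to -0.267 in resting Pan-TurboID inputs. In bulk libraries like these, a change in the cells of a type and a change in footprints per cell cannot be told apart. Over both baits, 24 of 43 members rose and none fell (median log2 fold change 0.54), against 8.21% of all genes higher and 7.62% lower and a median of 0.04. This fit takes the inputs of both baits as separate libraries. Deviations of same-numbered libraries of another bait or condition correlated at r of -0.273 to 0.629, with a median of 0.0771 over 72 pairs. Some of these pairs thus deviated together, so that its FDRs may be too small. All 4 members of complex II rose, 6 of 9 in complex III, 3 of 13 in IV and 11 of 17 in V, with medians of 0.58, 0.43, 0.54 and 0.59. In 33 members every depolarized TurboID-PSD95 input lay above every resting one (15.2% of all genes), and in 21 members the same held for Pan-TurboID inputs (12% of all genes). Without depolarized Pan-TurboID input replicate 1, 24 members again rose (median 0.60), against 7.73% of all genes, but Sdha (FDR 0.0734) and Uqcrfs1 (FDR 0.0507) were lost and Cox4i1 and Atp5g2 gained. After removal of the length trend as well, 8 members rose, against 11.4% of all genes in either direction, the calls for Uqcrb, Uqcrc1, Atp5f1 and Cox6b2 being lost.

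Catalytic and small subunits were among the members that rose. Atp5b had 2810, 3280 and 3040 CPM in resting TurboID-PSD95 inputs and 4900, 3940 and 3780 after KCl, with 2830, 3250 and 3160 against 3820, 3870 and 4240 for Pan-TurboID (log2 fold change 0.44, SE 0.123, FDR 0.0144). Cox6c (chromosome 15, 35935300 to 35937271, minus strand), a small complex IV subunit, had 130, 127 and 154 CPM at rest and 273, 256 and 311 after KCl with TurboID-PSD95, and 105, 94 and 165 against 216, 187 and 309 with Pan-TurboID (log2 fold change 1.02, SE 0.233, FDR 0.0035). In CPM, the depolarized inputs of each bait lay above its resting inputs for both genes. By the deposited RPKM, Atp5b in Pan-TurboID inputs was at 770 (SD 231) at rest and 790 (SD 439) after KCl. Cox6c was at 210 (SD 98.2) and 330 (SD 222) there. In TurboID-PSD95 inputs these values were 855 (SD 149) and 967 (SD 200) for Atp5b and 263 (SD 12) and 455 (SD 144) for Cox6c. The deposited RPKM divide by each library's total over all regions, of which CDS counts are a varying part. In depolarized Pan-TurboID inputs, replicate 1 had 2106560 CDS counts of 16918170 in total. Replicates 2 and 3 had 8437287 of 21583218 and 6271486 of 15922772.

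Sdhc had 216, 212 and 187 CPM at rest and 324, 332 and 323 after KCl with TurboID-PSD95 (log2 fold change 0.69, SE 0.127, FDR 4.21e-04), with no overlap. Sdhb rose by 0.53 (SE 0.118), Uqcrb by 1.04 (SE 0.211), Cyc1 (chromosome 15, 76343564 to 76345759, plus strand) by 0.52 (SE 0.125), Cox6a1 by 0.90 (SE 0.209), Atp5f1 (subunit b) by 0.57 (SE 0.118) and Atp5d (subunit delta) by 0.70 (SE 0.153). Of the other defining subunits, Sdha (0.44), Uqcrfs1 (0.33), Cox7c (0.84), Atp5c1 (0.46), Atp5e (0.70), Atp5g1 (0.88) and Atp5g3 (0.62) passed. Uqcrc1 (0.35, FDR 0.0748), Cox4i1 (0.49, FDR 0.0502), Cox5a (0.44, FDR 0.0666), Cox8a (0.58, FDR 0.165), Atp5g2 (0.79, FDR 0.0634) and Atp5a1 (0.12, FDR 0.54) did not. With a replicate block 31 members rose, against 10.2% of all genes, and Cox4i1 (FDR 0.0168), Cox5a (FDR 0.0278), Cox8a (FDR 0.0498) and Atp5g2 (FDR 0.0419) were among those added.

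Fold changes in inputs after KCl also ran with CDS length, with a Spearman correlation of -0.329 over all genes and -0.455 over the members. Yet 37 of 43 members lay above the median of the 200 genes nearest in length, all 4 in complex II, 7 of 9 in III, 10 of 13 in IV and 16 of 17 in V. With the length trend removed, 11 members were higher and 1 lower (median 0.25), against 13.7% of all genes in either direction. The higher ones were Sdha (0.53), Sdhb (0.41), Uqcrb (0.62), Uqcrc1 (0.38), Uqcrc2 (0.45), Cyc1 (0.45), Cox6c (0.52), Cox6a1 (0.47), Atp5b (0.50), Atp5d (0.37) and Atp5f1 (0.43), and the lower one was Cox6b2 (-1.52, SE 0.506, FDR 0.0419), whose libraries spread from 0.857 to 18.1 CPM. Sdhc and Sdhd (FDR 0.0525 and 0.0945), Uqcr10, Uqcrq and Uqcrfs1 (FDR 0.0528, 0.157 and 0.205) and Cox7c (FDR 0.432) were no longer called, although Sdhc (FDR 0.0229) and Uqcr10 (FDR 0.0273) were called with a replicate block.

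The 15 tested members without a window elsewhere had a median of 0.53 with 11 calls, and the 11 with most of their windows elsewhere one of 0.79 with 7 calls, or 0.30 and 0.27 with the length trend removed. The call count rests on replicate 3, without which no member passed (median 0.43) and 1.09% of all genes were higher at an FDR of 0.05. It was 12 without replicate 2, where 3.29% were. Without replicate 3, 15 members were higher and 1 lower at an unadjusted p below 0.05, without a share of all genes beside them. In complex I, 22 of 37 nuclear subunits were higher (median 0.57), against 8.21% of all genes, or 6 with the trend removed, against 6.91%. Of 18 tricarboxylic acid cycle genes 8 rose, of 33 assembly factors 5 and of the 13 mitochondrially encoded subunits 4, while of 13 regulators of mitochondrial gene expression none rose and 4 fell, where 7.62% of all genes fell. Cytosolic ribosomal proteins, also short, had 0 of 76 higher and 3 lower, and 17 lower with the trend removed (median -0.27), against 6.8% of all genes.

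**Figure D5:**
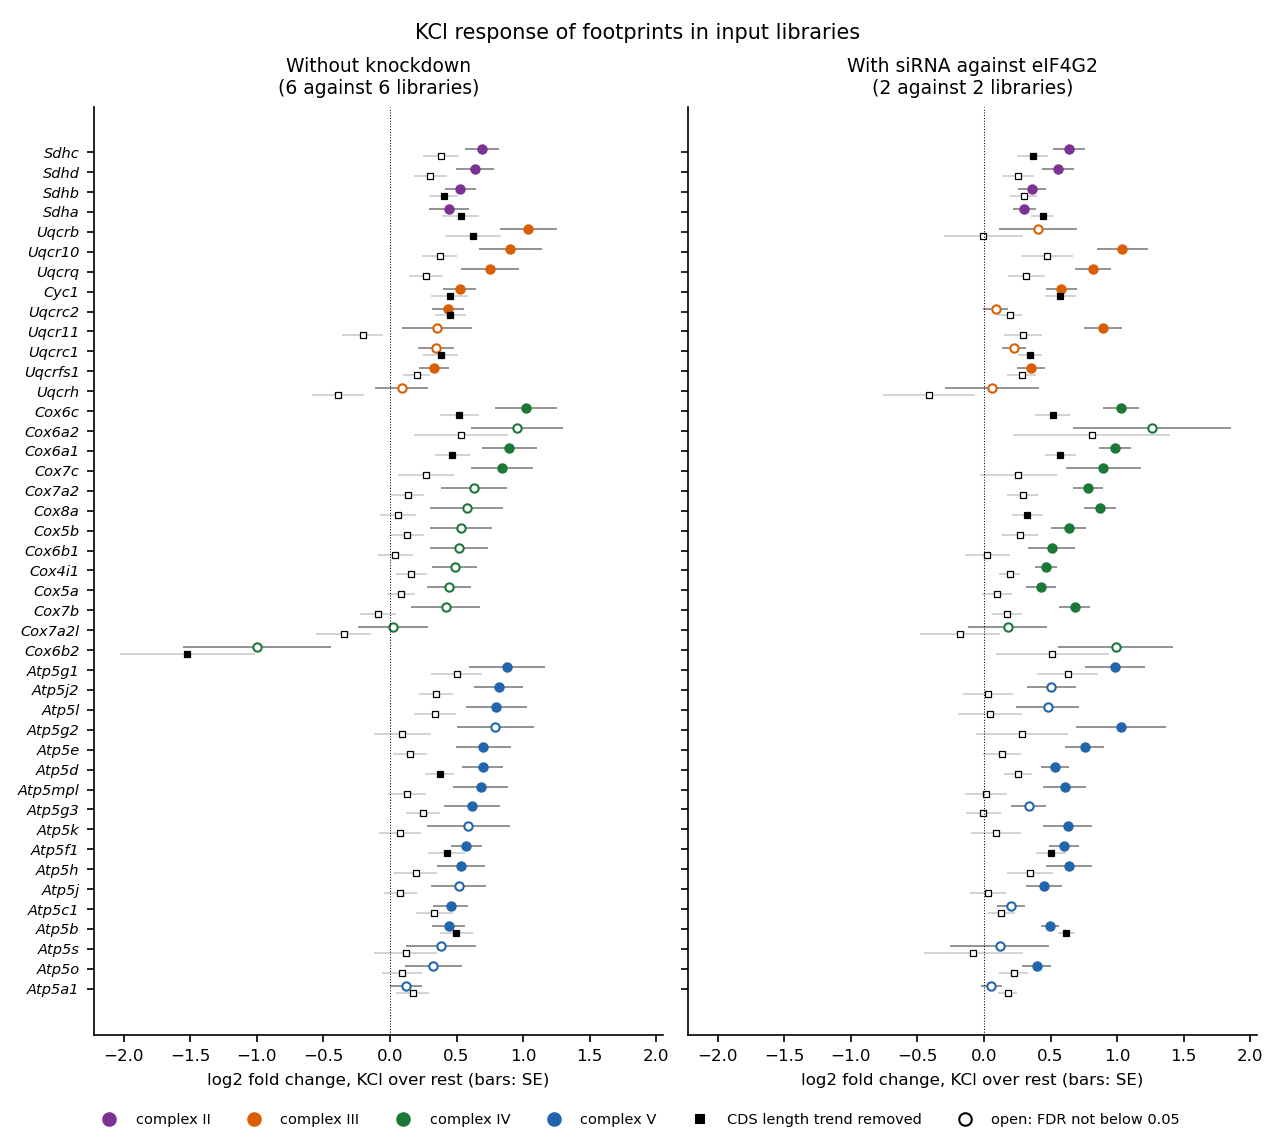
Log2 fold change of KCl over rest in inputs (x axis, bars are SE) for the 43 tested members without (left, 6 against 6 libraries) and with siRNA against eIF4G2 (right, 2 against 2), circles coloured by complex and squares with the CDS length trend removed, filled where the edgeR FDR is below 0.05. Circles lie above 0 for 42 members on the left and 43 on the right, and 35 and 36 squares lie closer to 0 than their circles, with 12 filled on the left and 9 on the right.

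With eIF4G2 knocked down, respiratory chain footprints also rose in inputs relative to all CDS footprints. Of 43 members, 30 rose and none fell (median 0.56), against 8.9% and 10.4% of all genes. Cox6c went from 155 and 159 CPM to 323 and 312 (log2 fold change 1.03, SE 0.136, FDR 3.53e-06), and Atp5b from 2610 and 2590 to 3480 and 3750 (0.50, SE 0.0651, FDR 3.5e-06). In neither gene did the pairs of libraries overlap. Every input after KCl lay above every one at rest in 39 of 43 members and 30.6% of all genes, and below in 32.3% of all genes. Cox6a1 rose by 0.98 (SE 0.119), Sdhc by 0.64 (SE 0.117), Sdhd by 0.56 (SE 0.118), Uqcr11 by 0.89 (SE 0.143), Uqcrq by 0.82 (SE 0.135) and Atp5f1 by 0.60 (SE 0.114). With the trend removed, 9 members were called higher (median 0.26), against 8.06% of all genes higher and 16.4% in either direction. They were Sdha, Sdhc, Cyc1, Uqcrc1, Cox6a1, Cox6c, Cox8a, Atp5b and Atp5f1. Before its removal, 37 of 43 members lay above their neighbours in length. Astrocyte markers moved with the members here, with 2 of 6 higher and none lower (median 0.41, summed 507 to 529 CPM at rest and 676 to 715 after KCl). Of 6 neuron markers 2 were lower and none higher (median -0.15, summed 8690 to 8870 CPM at rest and 6900 to 7070 after KCl), and the part of both lists in the result was not tested. Without either resting knockdown input 17 members passed, against 3.85% and 3.89% of all genes, where the lone library left was assumed to vary like the other groups. The KCl response with knockdown minus that without it was tested directly, and no member passed (median 0.03, with 0 members at an unadjusted p of 0.05 and 0 in DESeq2), against 0.00759% of all genes.

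Pulldowns were compared before and after KCl in the same way. With TurboID-PSD95, 6 of 43 members rose and none fell at an FDR of 0.05 (median 0.75), against 3.21% and 3.37% of all genes. At an unadjusted p of 0.05, 33 members were higher, a count without a share of all genes beside it, so that nothing is read from it. The 6 were Uqcrq (1.19, SE 0.312), Uqcrb (1.14, SE 0.311), Cox6a1 (1.07, SE 0.3), Atp5j2 (1.00, SE 0.27), Atp5mpl (1.04, SE 0.298) and Atp5g2 (1.5, SE 0.457), with FDRs from 0.0207 to 0.0456. Cox6a1 had 76.6, 134 and 90 CPM in resting and 129, 296 and 200 in depolarized pulldowns, groups that overlap in 1 library of each. Without depolarized pulldown replicate 2, all 6 lost their call (FDR 0.105 to 0.227), and 1 other member was called, Sdha (0.72, FDR 0.0412, median over members 0.41), against 1.72% of all genes. When the length trend was removed as well, Sdha, Uqcrc2 and Atp5f1 were called, against 2.69%. DESeq2 called 21 members higher, against 5.81% of all genes. Leaving out replicates 1, 2 and 3 of the experiment gave 23, 1 and 0 higher, against 6.18%, 0.437% and 0.295% of all genes. A replicate block gave 17, against 4.88%. With the length trend removed no member passed, against 5.21% of all genes, and 4 rose with the replicate block, against 4.5%. Without the block, 9 were higher and 1 lower at an unadjusted p below 0.05, without a share of all genes beside them.

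With Pan-TurboID, 5 members rose in pulldowns after KCl and none fell (median 0.52), against 1.9% and 3.15% of all genes. They were Sdhd (0.76), Sdhc (0.61), Cox6a1 (1.05), Atp5j2 (0.89) and Atp5d (0.73). With a replicate block 8 rose, against 3.15% of all genes, with Sdhb (0.49), Uqcr10 (0.96) and Atp5f1 (0.54) added. With the trend removed Cox6a1 passed (0.65, FDR 0.035), against 5.13% of all genes, at a median of 0.24, and with the replicate block as well 3 did, against 3.89% of all genes higher, with Sdha (0.62, FDR 0.0327) and Atp5d (0.46, FDR 0.0483) added. With neither correction, 9, 0 and 0 members passed without replicate 1, 2 and 3, against 2.53%, 0.602% and 0.28% of all genes higher. In the last pair, 13 and 1 were at an unadjusted p below 0.05, counts without a share of all genes beside them, so that nothing is read from them.

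In knockdown pulldowns 15 members rose after KCl and 1 fell (median 0.29), against 10.2% and 12% of all genes. Sdha went from 585 and 546 to 778 and 783 CPM (log2 fold change 0.44, SE 0.0866), with no overlap. Every pulldown after KCl lay above every one at rest in 24 members and 27.3% of all genes, and below in 2 members and 26.3%. Uqcrc1 (0.48, SE 0.0921), Cyc1 (0.55, SE 0.12), Cox6a1 (0.62, SE 0.149), Cox8a (0.54, SE 0.136), Sdhc (0.41, SE 0.131), Atp5b (0.45, SE 0.0654) and Atp5j2 (1.10, SE 0.225) rose as well. The member that fell was Atp5s (-1.40, SE 0.46, FDR 0.0296), from 11 and 16.3 CPM to 4.86 and 5.41. With the trend removed 10 rose and 1 fell, against 22.1% of all genes. Of 6 astrocyte markers 3 were higher and 1 lower (median 0.63, summed 486 to 583 CPM at rest and 725 to 929 after KCl). Summed microglial markers stood at 5.5 to 6.17 CPM at rest and 12.8 to 14.6 CPM after KCl, although of the 2 that passed the filter on low counts 1 was lower and none higher, and 1 of 6 neuron markers was lower. The part of these lists in the result was not tested. The KCl response of pulldowns with knockdown minus that without was called for no member by either tool (median -0.42), against 0.448% of all genes in edgeR. At an unadjusted p of 0.05, 5 members were lower, without a share of all genes beside them. Without depolarized TurboID-PSD95 pulldown replicate 2 the median was -0.13, and without replicate 1 of the KCl experiment 2 members were lower, against 0.999% of all genes.

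Inputs of the other experiments were set against those of the KCl experiment, where treatment and experiment cannot be told apart. In DHPG inputs 1 member was higher and 7 were lower than in resting TurboID-PSD95 inputs (median -0.08), against 16.3% and 16.5% of all genes. Sdha was higher (375, 382 and 388 CPM against 266, 280 and 303, log2 fold change 0.40, SE 0.106, FDR 0.0086), without overlap. Cox8a was lower (395, 388 and 344 CPM against 550, 799 and 598, -0.82, SE 0.23), again without overlap, and so were Uqcr11 (-0.73), Uqcrh (-0.75), Cox7a2l (-0.74), Cox7b (-0.52) and Atp5j2 (-0.56). The other lower call was Cox6b2, at 18.1, 3.08 and 5.9 CPM in resting and 0.8, 0.634 and 0.824 in DHPG inputs. It passed the filter on low counts only through the resting libraries, so nothing is read from its call. Beside these members, 5 of 6 astrocyte markers (median -2.48), 2 of 4 oligodendrocyte lineage markers (median -1.67) and 12 of 16 immediate early genes (median -1.25) were lower, and 3 of 6 neuron markers were higher (median 0.37). Of the immediate early genes 2 were higher, and the part of these lists in the result was not tested. All 13 mitochondrially encoded subunits were higher (median 1.67). With the trend removed 3 members were higher and 7 lower, against 33.8% of all genes, Cox6c (0.56) and Atp5k (0.52) being added to the higher ones. Without DHPG replicate 1, 2 or 3, 4 members passed, against 19.6%, 19.2% and 20.1% of all genes.

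In knockdown inputs 13 of 43 members were lower than in TurboID-PSD95 inputs without knockdown and none was higher (median -0.38), against 7.91% and 8% of all genes. They were 6 of 9 in complex III, 3 of 13 in IV, 4 of 17 in V and none in II. Atp5j2 had 60.1 and 68.5 CPM in resting knockdown inputs against 104, 137 and 114 without knockdown (log2 fold change over both conditions -0.99, SE 0.174, FDR 3.63e-04). Uqcrb had 18.5 and 22.2 against 35.8, 25.7 and 30.5 (-1.02, SE 0.216, FDR 0.00226). At rest neither pair of groups overlaps. Uqcr11 was at -0.96, Cox6a1 at -0.65, Cox6a2 at -1.35 and Atp5d at -0.56. With the length trend removed, 13 were lower and 2 higher (Cox6c at 0.44 and Atp5e at 0.43), against 18.5% of all genes. Other lists moved as well, with 7 of 13 mitochondrially encoded subunits higher (median 0.70), 6 of 16 immediate early genes lower (median -0.79), 1 of 6 astrocyte markers higher (median 0.38), 1 of 6 neuron markers higher and 2 lower (median -0.15), and 1 of 5 oligodendrocyte lineage markers higher and 1 lower (median 0.41). Summed microglial markers stood at 6.01 to 7.35 CPM in knockdown inputs and 1.23 to 3.6 CPM in inputs without knockdown. None of them passed the filter on low counts in the KCl experiment alone, so no call is read from them, and the part of these lists in the result was not tested. The count was 3 to 5 without any 1 knockdown input, the lone library left being assumed to vary like the other groups, where 3.37% to 3.76% of all genes were lower (3.54% without resting input replicate 2). Without replicate 1 of the KCl experiment 19 members were lower and 1 higher, against 24.8% of all genes in either direction, and without replicate 3 the count of lower members was 6, against 4.51% of all genes lower.

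For footprints in 5′ UTRs the edgeR quasi-likelihood test called no member. The 5′ UTR held 19.9% of the members' 5′ UTR and CDS counts in resting and 19.7% in depolarized TurboID-PSD95 inputs, against 19.9% and 24.5% over all genes. In TurboID-PSD95 pulldowns it held 8.74% at rest and 10.5% after KCl, against 7.51% and 11.4% over all genes. Depolarized pulldown replicate 2 stood at 16.9% for the members and 18.7% for all genes. Of 40 members tested, none passed for KCl in inputs (median 0.37, all genes 0.23, 1 at an unadjusted p of 0.05, 0 in DESeq2), against 0.521% of all genes. In TurboID-PSD95 pulldowns none passed either (median 0.73, all genes 0.65, 0 in DESeq2), against 0.285% of all genes. At an unadjusted p of 0.05, 7 members passed, without a share of all genes beside them. The members' median was -0.06 without depolarized replicate 2. A replicate block called 1 member there (Atp5c1, log2 fold change 1.25, FDR 0.0371), against 1.99% of all genes, and leaving out replicate 1 of the experiment called 2, against 2.91%. The transcript taken for Atp5c1 has a 5′ UTR of 748 nt and a CDS of 825 nt, while its most counted transcript has a CDS of 897 nt. Part of this 5′ UTR may be coding sequence in the latter, which was not tested. Footprints were counted at their 5′ ends, so that those of ribosomes on the first codons count towards the 5′ UTR.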

How the data were processed

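Reads were stripped of adapters and molecular identifiers by the authors, who aligned them to mm10 with Rsubread and counted them with plastid. Per the file headers, counts are of footprint 5′ ends at offset 0, after removal of rRNA and duplicates. Use of strand and the handling of reads with several alignments are not given in the sources used here. The deposited counts, whole numbers per CDS or 5′ UTR segment, were used for all tests. The deposited RPKM values, which scale counts by segment length and library total, served as an alternative for levels.

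Counts were summed per transcript, and the transcript with the longest exons was taken for each gene, named through GENCODE M21 (99.1% of coding transcripts matched). CDS counts were tested over all genes with edgeR 4.0.16 in R 4.3.3 (quasi-likelihood F test, TMM, filterByExpr, Benjamini-Hochberg FDR of 0.05) in 16 comparisons, and 5′ UTR counts in 2. SE is the log2 fold change over the root of F. Total counts per library lay between 5906281 and 35643247. To remove length trends, each library's log2 CPM, less the gene's mean over libraries, was smoothed on log2 CDS length (lowess, span 0.3) and entered as an offset. All 28-nt windows of each CDS were searched for exact matches on both strands of the mm10 chromosomes. In each comparison, up to 2 members per complex with the smallest p, members whose call the trend's removal changed where 5 or fewer per complex, defining subunits and isoforms were named.

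The members and gene lists were chosen with earlier results of these data known. Groups came from the labels. Alternatives were DESeq2 1.42.0, edgeR's likelihood ratio test, RLE factors, no filter, the most counted transcript, replicate blocks and leaving out replicates. Same-numbered input and pulldown libraries of the KCl experiment deviated together (r 0.296 to 0.659, 12 of 12 pairs), and the methods state that samples of 1 replicate were processed together, whereas in the DHPG libraries r was -0.183 to 0.0459, and knockdown libraries did not pair.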

Additional observations from a re-analysis of the deposited data

How the results depend on the processing

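Of the counts of called members, 198 stayed within 1.5 times their value under the alternatives, 53 moved further and 7 turned direction. Of fold changes of single members, 1744 kept direction and call, 437 lost the call and 55 changed sign. Of 4 levels summed over members, given last, 3 moved by more than the spread between replicates and 1 did not. With 2 or 3 libraries per group, leaving out 1 can end the calls of a comparison. Low members such as Cox6b2 and Atp5s have few counts per library, and members with copies elsewhere in the genome have uncertain levels. The replicate block within each condition and the fits without depolarized TurboID-PSD95 pulldown replicate 2 or depolarized Pan-TurboID input replicate 1 were chosen after seeing the data. The cause of each change below was not tested.

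With the CDS length trend removed, called members numbered 2 in the resting dendritic comparison, 1 in the depolarized one, 5 for Pan-TurboID, 12 for KCl in inputs, 0 in TurboID-PSD95 and 1 in Pan-TurboID pulldowns after KCl, 27 for DHPG pulldowns, 21 for knockdown pulldowns and 9 for KCl in knockdown inputs. With the replicate block added to this, they were 4, 2, 6 (26.3% of all genes) and 15 (17.5%) in the first 4, 4 for KCl in TurboID-PSD95 and 3 in Pan-TurboID pulldowns, 21 for knockdown pulldowns (46.6%) and 9 for KCl in knockdown inputs (16.1%). With the replicate block within each condition and the trend removed, they were 9, 5 and 8 (33.4%) at rest, after KCl and for Pan-TurboID. The replicate block alone gave 17 for KCl in TurboID-PSD95 pulldowns, 8 in Pan-TurboID pulldowns and 1 in 5′ UTRs of pulldowns, and within each condition 32 for the depolarized comparison. With no other correction, the block moved no other count by over 1.5 times.

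The likelihood ratio test gave 13 (4.8% of all genes higher) and DESeq2 21 for KCl in TurboID-PSD95 pulldowns. In Pan-TurboID pulldowns DESeq2 gave 8 (3.56%), no filter 3 (1.16%) and the most counted transcript 2 (1.86%). Without depolarized pulldown replicate 2, the depolarized comparison had 34 and KCl in TurboID-PSD95 pulldowns 1, or 3 each with the trend removed. Without depolarized Pan-TurboID input replicate 1, KCl in inputs had 24, the depolarized comparison 21 (22.2% of all genes) and Pan-TurboID 33 (35.5%), or 8, 1 and 4 with the trend removed (11.4%, 12.7% and 23.1% of all genes).

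Leaving out single replicates gave the following counts, with the range of shares of all genes called in either direction in the same fits. They were 0 to 29 in the resting (0.121% to 27.7%) and in the depolarized comparison (0.129% to 22.6%), 13 to 27 for Pan-TurboID (9.68% to 28.8%), 0 to 21 for KCl in inputs (3.9% to 16.2%), 0 to 23 in TurboID-PSD95 (0.697% to 11.2%) and 0 to 9 in Pan-TurboID pulldowns (0.561% to 5.47%). They were 4 to 10 for DHPG inputs (19.2% to 36.1%), 17 to 33 for KCl in knockdown inputs (9.5% to 21.9%), 0 to 2 for the pulldown response with against without knockdown (0.159% to 1.25%), 3 to 20 for knockdown inputs (7.72% to 24.8%) and 0 to 2 for 5′ UTRs of pulldowns (0% to 2.92%). Each 0 among the first 6 ranges came without replicate 3, and for Pan-TurboID pulldowns also without replicate 2.

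With the trend removed, 16, 23 and 23 of 43 members changed sign in the first 3 comparisons, 15, 22 and 21 of them to positive, as did 7 of 42 in DHPG pulldowns (7 to positive) and 11 of 43 in knockdown pulldowns (10 to positive). Values follow for the named members that had been called. In the first 3 comparisons they turned positive, given in the order trend removed, then with the replicate block, then with the block within each condition. At rest they were 0.134, 0.129 and 0.128 for Atp5e, 0.0318, 0.0286 and 0.0274 for Atp5j2, 0.19, 0.221 and 0.241 for Cox6c and 0.46, 0.436 and 0.438 for Cox7c. After KCl, with a last value without pulldown replicate 2, they were 0.1, 0.108, 0.108 and 0.197 for Atp5e, 0.0901, 0.0825, 0.0761 and 0.215 for Atp5j2 and 0.104, 0.139, 0.146 and 0.176 for Cox7c. For Pan-TurboID they were 0.17, 0.176 and 0.178 for Atp5e, 0.0147, 0.0155 and 0.0223 for Atp5j2, 0.41, 0.41 and 0.398 for Cox7c and 0.126, 0.116 and 0.0933 for Uqcrh, and with the blocks only 0.00463 and 0.0106 for Cox6c. Without depolarized Pan-TurboID input replicate 1 and with the trend removed, they were 0.168 for Atp5e, 0.114 for Atp5j2 and 0.112 for Cox7c after KCl, and 0.229 for Atp5e, 0.0348 for Atp5j2, 0.0433 for Cox6c, 0.41 for Cox7c and 0.117 for Uqcrh for Pan-TurboID. In DHPG pulldowns Atp5g2 was at 0.00106 and Cox8a at 0.00902 with the trend removed, and with the most counted transcript Atp5a1 was at -0.0224 and Atp5c1 at -0.0792. In knockdown pulldowns Atp5g2 was at 0.112 and 0.116 and Cox7c at 0.266 and 0.249 without and with the replicate block, and Atp5c1 at -0.132 with the most counted transcript.

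Summed over members, the log2 ratio of levels per kb to resting TurboID-PSD95 inputs was 0.608 in depolarized inputs, -0.769 in resting and -0.142 in depolarized pulldowns (-0.365 without replicate 2), and 0.316, -1.18 and -0.85 by the deposited RPKM, which divide by each library's total over all regions.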
